A study of Mus musculus with 7 samples.

Results

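The genes for proteins of the mitochondrial ribosome were followed across 7 libraries of mouse liver RNA. They were taken from the deposited table as every gene of the protein-coding class whose symbol begins with Mrpl or Mrps and a digit, which gave 78 of 54532 listed genes, 49 named for the large subunit and 29 for the small subunit. The livers came from old C57BL/6 mice, and the age is not stated beyond that word. The 3 MDL-800 libraries came from animals on a standard diet after they had received MDL-800, a small-molecule activator of the deacetylase SIRT6, and the 4 control libraries came from animals on a standard diet. The comparison asks how liver RNA differs after MDL-800. No genotype, transgene or pooling is stated. The labels do not say that each library came from its own animal. The p-values therefore reflect the spread among the 7 libraries, part of which may be technical. Y-linked and Xist reads, given below, differ between libraries of the same group.

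The mitochondrial ribosome translates the few messages encoded in mitochondrial DNA, which give core subunits of the respiratory chain and of ATP synthase. Its ribosomal RNAs are transcribed inside the organelle, while its proteins are encoded in the nucleus, translated in the cytosol and imported. In liver, whose hepatocytes are rich in mitochondria, these nuclear genes have to be expressed alongside the mitochondrial rRNAs to build complete particles.

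The libraries held 17600066 to 19920469 reads on genes, recovered as whole numbers from the deposited values. FPKM is fragments per kilobase of gene length, scaled to the depth of the library. The 11394 genes that averaged 1 FPKM or more were tested. Of the 78 genes, 77 passed that filter. The remaining gene, Mrpl53, was listed at 0 in every library, and 87.97% of its exon bases in the GENCODE M21 annotation are shared with Ccdc142os and Gm42688. Hepatocyte markers such as Alb and Apoa1 were abundant in every library, and their summed level ran from 56090 to 57641 FPKM in MDL-800 libraries and from 54753 to 82362 FPKM in controls. Reads of 4 Y-linked genes (Uty, Kdm5d, Ddx3y and Eif2s3y) numbered 3514 in MDL-800 2 and 2173 in control 1, and were at 0 in the other 5 libraries, which allows up to 3 reads by counting error. No sex is given in the labels. Reads of Xist, the noncoding RNA of X inactivation, numbered 15495 and 18043 in MDL-800 1 and 3 and 21104 and 16805 in control 2 and 4, but 3 each in MDL-800 2 and control 1 and 0 in control 3. Control 2 had the highest summed levels of macrophage markers (909 FPKM, against 127 to 453 FPKM in the other 6 libraries), neutrophil markers (288 FPKM, against 11.6 to 81.5 FPKM) and erythroid markers (796 FPKM, against 123 to 151 FPKM).

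The 77 tested genes together took a similar share of the reads in both groups. It was 0.276%, 0.256% and 0.245% of all gene reads in MDL-800 1 to 3, against 0.269%, 0.237%, 0.236% and 0.237% in control 1 to 4. The mean was 0.259% ± 0.0157 in MDL-800 livers (SD, n = 3) and 0.244% ± 0.0164 in control livers (SD, n = 4), and the groups overlapped because control 1 stood above MDL-800 2 and 3. On the deposited scale the large subunit genes summed to 1086, 1225 and 979 FPKM in MDL-800 1 to 3, against 1258, 862, 1055 and 1095 FPKM in control 1 to 4. The small subunit genes summed to 431, 494 and 405 FPKM in MDL-800 1 to 3, against 518, 359, 448 and 414 FPKM in control 1 to 4. The highest and the lowest sum of each subunit were both in control libraries, control 1 and control 2. The ratio of the large to the small subunit sum was 2.47 ± 0.0503 in MDL-800 livers (SD, n = 3) and 2.46 ± 0.129 in control livers (SD, n = 4), so the difference in means was smaller than the spread within either group.

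The genes of a particle that holds each protein in a single copy, or in few copies, differed widely in RNA level. Mean FPKM over the 7 libraries ran from 2.16 for Mrpl19 to 85.5 for Mrpl14 among large subunit genes, a 39.5-fold range with a median of 17.0 FPKM. Among small subunit genes it ran from 2.29 for Mrps25 to 57.6 for Mrps21, a 25.1-fold range with a median of 10.9 FPKM. The median over both subunits was 13.9 FPKM, against 5.31 FPKM over all tested genes. Of the 77 genes, 28 had a mean of at least 20 FPKM and 10 had a mean under 5 FPKM.

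The most abundant message per length was that of Mrpl14. This gene for a protein of the interface between the subunits (chromosome 17, 45686322 to 45698495, GRCm38) had 87.7, 107 and 75.6 FPKM in MDL-800 1 to 3, against 106, 64.2, 76.5 and 81.5 FPKM in control 1 to 4. Control 1 and MDL-800 2 were high and control 2 was low, so the groups overlapped. Mrpl34 averaged 67.2 ± 10.7 FPKM in MDL-800 livers (SD, n = 3) and 67.7 ± 13.5 FPKM in control livers (SD, n = 4). Mrpl27, the relative of a bacterial protein that lies near the site of peptide bond formation, averaged 65.0 ± 7.03 FPKM in MDL-800 livers (SD, n = 3) and 65.9 ± 8.87 FPKM in control livers (SD, n = 4). Neither mean differed by more than the spread within a group, and neighbours in this order overlapped in their libraries.

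In the small subunit, Mrps21 (chromosome 3, 95862634 to 95871519, GRCm38) had 53.7, 61.8 and 56.0 FPKM in MDL-800 1 to 3, against 68.1, 54.5, 54.6 and 54.6 FPKM in control 1 to 4. Control 1 stood above every other library, and control 2 to 4 lay close together. Mrps28 averaged 38.0 ± 6.71 FPKM in MDL-800 livers (SD, n = 3) and 37.6 ± 8.62 FPKM in control livers (SD, n = 4). Mrps24, the relative of bacterial S3 at the entry of the mRNA channel, averaged 37.4 ± 4.90 FPKM in MDL-800 livers (SD, n = 3) and 37.5 ± 7.53 FPKM in control livers (SD, n = 4). In the plot of levels by gene, the MDL-800 and control libraries overlap for nearly every gene.

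**Figure D1:**
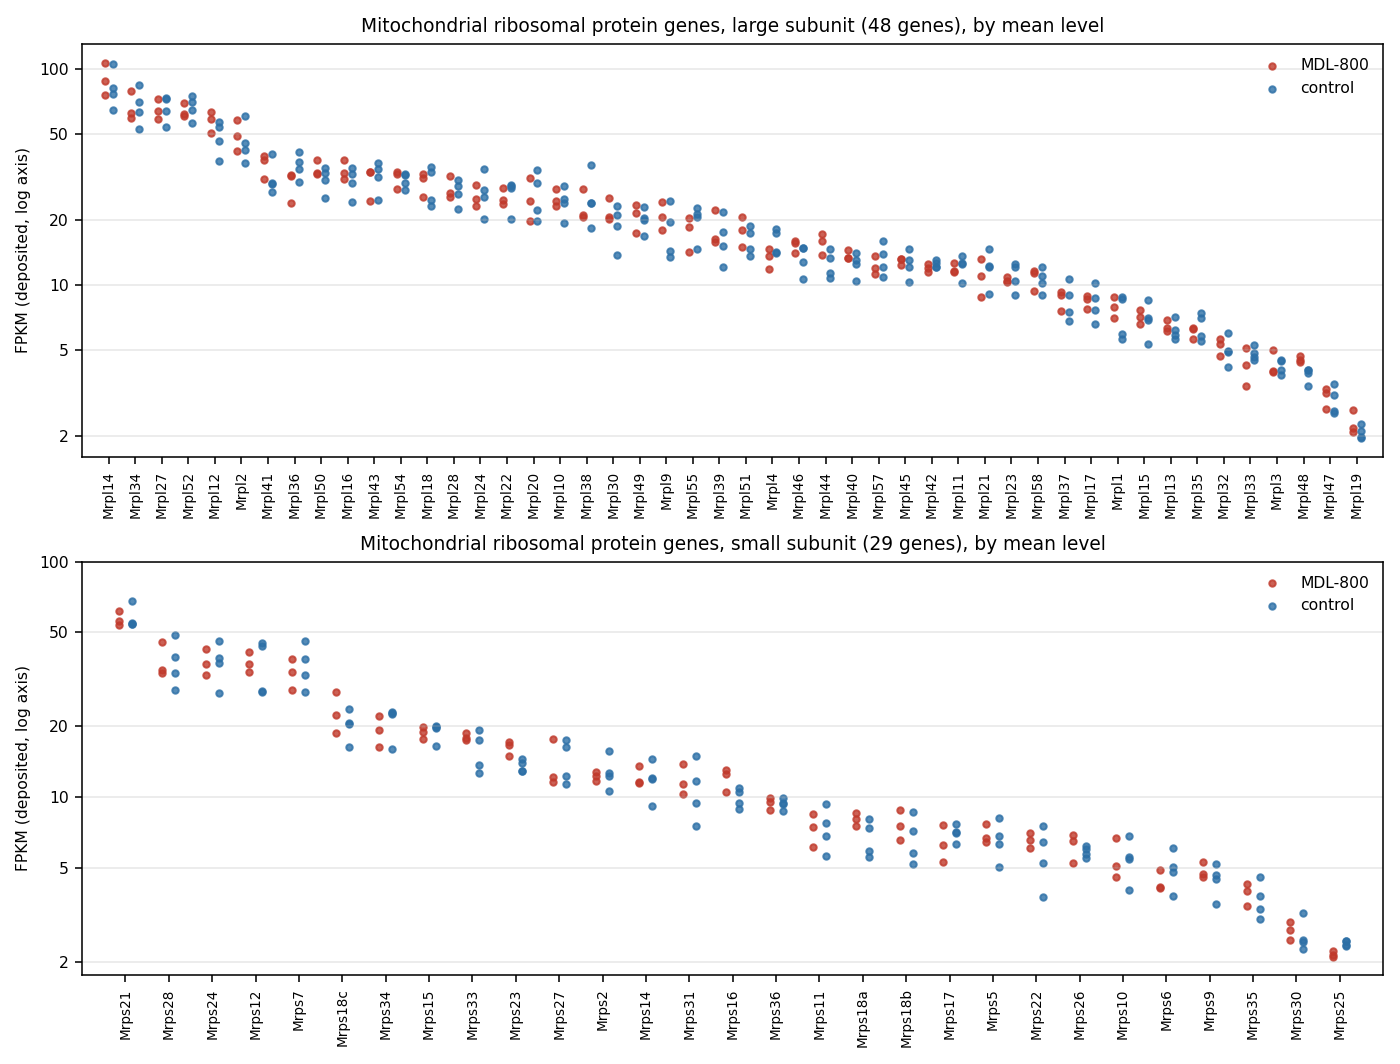
Deposited FPKM (log axis) of each tested gene of the large subunit (upper panel, 48 genes) and of the small subunit (lower panel, 29 genes), ordered by mean level, with 1 point per library (MDL-800 left, n = 3; control right, n = 4). Levels span 2.16 to 85.5 FPKM in the large and 2.29 to 57.6 FPKM in the small subunit, and the groups are separate for 3 of the 77 genes.

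The genes are scattered over the genome, and their promoters are shown as a description. Whether promoter letters have a part in the order of libraries described below was not tested. RefSeq gave 75 promoter windows for 69 of the 78 genes on build GRCm38.p6, each with 250 bases before and 50 bases after the start of the gene. The letters CCGGAAG, bound by ETS factors such as GABPA, were present on either strand in 26 of the 75 windows (34.7%), against 8.86% of all 32851 promoter windows. The NRF1 motif, GCGC, any 2 bases and GCGC again, was present in 14 windows (18.7%), against 6.22% of all. The letters AAGATGGCG, bound by YY1, were present in 8 windows (10.7%), against 1.40% of all. The 3 motifs do not overlap each other in the windows printed here. The windows also differed in base composition, with a median of 58.7% G and C and 21 CG dinucleotides, against 52.7% and 7 in all windows, and no share was corrected for that. A match is a description of the letters and not evidence of a binding site.

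The 6 windows printed here belong to Mrps23, the gene with the smallest p between the groups, to Mrpl44 and Mrpl36 at the ends of the range of fold changes, to Mrps21, the most abundant small subunit gene, and to Mrpl12 and Mrps18a, which are described below. Each is written 5′ to 3′ along the gene, and capitals mark a match to 1 of the 3 motifs on either strand. The Mrpl12 window was chr11:120484387-120484686 on the plus strand. The Mrpl36 window was chr13:73330759-73331058 on the plus strand. The Mrpl44 window was chr1:79775768-79776067 on the plus strand. The Mrps18a window was chr17:46110754-46111053 on the plus strand. The Mrps21 window was chr3:95871465-95871764 on the minus strand. The Mrps23 window was chr11:88204138-88204437 on the plus strand. In Mrpl12 and Mrpl44 the capitals mark the NRF1 letters, and in Mrpl36 the YY1 letters. In Mrps18a they mark first the ETS and then the YY1 letters, in Mrps21 first the NRF1 and then the ETS letters, and in Mrps23 the ETS letters.
Mrpl12: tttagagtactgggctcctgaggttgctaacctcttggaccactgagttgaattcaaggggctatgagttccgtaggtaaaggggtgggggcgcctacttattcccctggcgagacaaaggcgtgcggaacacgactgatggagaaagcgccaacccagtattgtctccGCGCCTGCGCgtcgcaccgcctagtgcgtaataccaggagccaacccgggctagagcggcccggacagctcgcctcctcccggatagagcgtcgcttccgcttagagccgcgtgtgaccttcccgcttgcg
Mrpl36: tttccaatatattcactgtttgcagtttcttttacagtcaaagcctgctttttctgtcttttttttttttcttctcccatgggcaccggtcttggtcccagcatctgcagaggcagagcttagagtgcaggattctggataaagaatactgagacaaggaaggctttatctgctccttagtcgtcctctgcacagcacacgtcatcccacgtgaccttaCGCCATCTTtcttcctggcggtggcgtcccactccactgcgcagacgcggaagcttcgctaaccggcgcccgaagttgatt
Mrpl44: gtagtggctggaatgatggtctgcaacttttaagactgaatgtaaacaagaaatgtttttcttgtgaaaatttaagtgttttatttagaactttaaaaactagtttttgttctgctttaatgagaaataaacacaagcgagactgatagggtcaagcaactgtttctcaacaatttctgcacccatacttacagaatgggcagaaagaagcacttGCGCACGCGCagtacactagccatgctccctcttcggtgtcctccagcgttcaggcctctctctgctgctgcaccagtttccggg
Mrps18a: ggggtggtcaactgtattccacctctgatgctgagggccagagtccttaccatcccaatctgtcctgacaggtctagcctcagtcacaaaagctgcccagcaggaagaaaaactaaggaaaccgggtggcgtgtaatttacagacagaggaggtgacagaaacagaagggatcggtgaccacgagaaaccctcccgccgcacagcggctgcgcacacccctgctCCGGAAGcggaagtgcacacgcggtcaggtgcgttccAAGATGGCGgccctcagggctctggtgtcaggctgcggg
Mrps21: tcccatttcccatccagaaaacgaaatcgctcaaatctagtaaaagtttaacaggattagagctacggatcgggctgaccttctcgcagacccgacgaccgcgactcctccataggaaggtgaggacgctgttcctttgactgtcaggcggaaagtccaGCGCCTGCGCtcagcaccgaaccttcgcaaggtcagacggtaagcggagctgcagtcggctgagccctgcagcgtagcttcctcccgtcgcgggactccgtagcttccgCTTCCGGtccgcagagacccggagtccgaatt
Mrps23: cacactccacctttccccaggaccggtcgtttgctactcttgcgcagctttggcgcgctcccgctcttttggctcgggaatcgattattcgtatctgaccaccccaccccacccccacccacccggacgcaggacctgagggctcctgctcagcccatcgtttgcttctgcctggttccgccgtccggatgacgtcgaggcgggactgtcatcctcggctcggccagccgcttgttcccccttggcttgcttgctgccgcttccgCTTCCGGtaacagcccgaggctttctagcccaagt

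Of the 78 genes, 24 (30.8%) had a divergent protein-coding partner on the opposite strand, against 1910 of 21956 protein-coding genes (8.70%). The 5′ ends of such a pair lay at most 1000 bases apart or overlapped by at most 300 bases. Mrpl46 and Mrps11, whose 5′ ends overlap by more than that, were not counted. Of the 24 partners, 18 were tested, 9 of them with a log2 fold change above 0 and 0 called. Several partners act in mitochondria themselves. Mrps12, the relative of the bacterial S12 protein of the decoding centre, starts 172 bases from Sars2, the mitochondrial seryl-tRNA synthetase. Mrpl43 starts 116 bases from Twnk, the helicase of mitochondrial DNA. The 5′ ends of Mrpl36 and of Ndufs6, a subunit of respiratory complex I, overlap in the table. The RefSeq window of Mrpl36 printed above lies further along the gene, at another start, and is not the region between this pair. Chromosome 11 held 11 of the 78 genes (14.1%), against 7.43% of all protein-coding genes.

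Between MDL-800 and control livers, none of the 77 genes passed the limma test at an adjusted p under 0.05, and the lowest adjusted p among them was 0.950. None of the 11394 tested genes passed either (0% called). At an unadjusted p under 0.05, 1 of the 77 genes was counted, against 553 of all tested genes (4.85%). The limma voom fit on recovered reads also called 0 genes and counted 3 of the 77 at an unadjusted p under 0.05, against 6.63% of all tested genes in that fit. The count among the ribosomal genes was thus no higher than the background share.

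Most fitted differences were small. The median log2 fold change on the log2(FPKM + 1) scale was 0.04 over the large subunit genes, with 30 above 0 and 18 below, and 0.05 over the small subunit genes, with 20 above 0 and 9 below. Over both subunits 50 of 77 genes (64.9%) lay above 0, against 54.2% of all tested genes, whose median was 0.02. The single values ran from -0.28 to 0.31. For 63 of the 77 genes the whole 95% interval lay within a 1.5-fold change in either direction. The direction of the subunit medians rested on single libraries. Without MDL-800 2 the medians were -0.01 for each subunit and 34 of 77 genes lay above 0, and without control 2 the medians were -0.03 and -0.04 and 29 lay above 0.

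**Figure D2:**
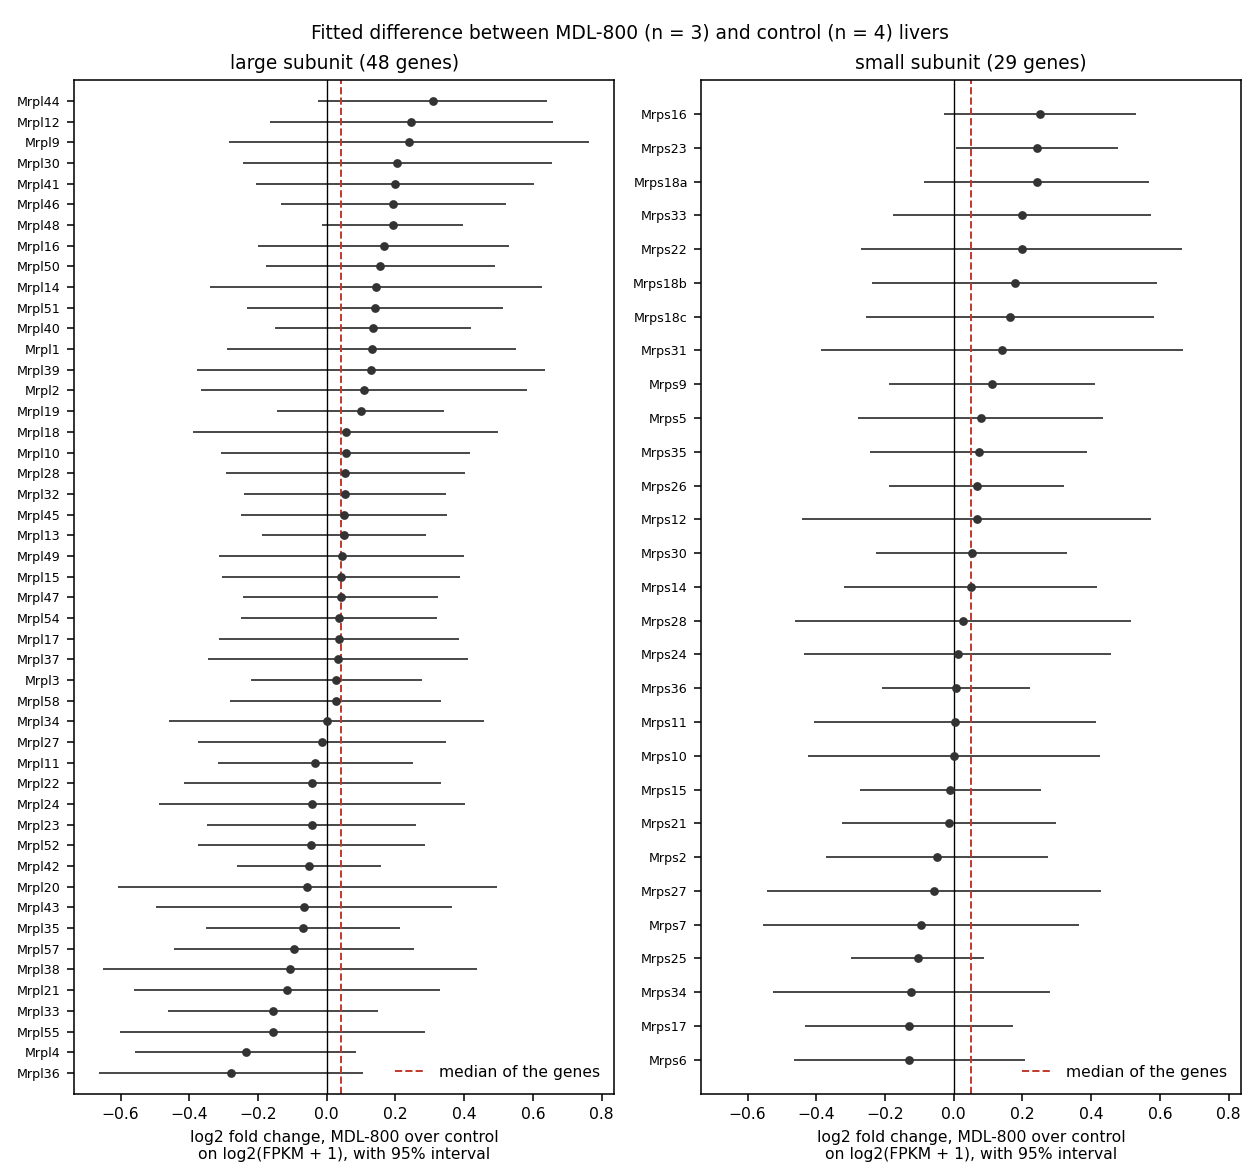
Fitted log2 fold change of each tested gene, MDL-800 (n = 3) over control (n = 4), on log2(FPKM + 1) with its 95% interval from limma (x axis), for the large subunit (left, 48 genes) and the small subunit (right, 29 genes), and the dashed line at the median of the genes. The medians of 0.04 and 0.05 lie close to 0, and Mrps23 is the gene whose interval does not include 0.

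The groups were separate, with every MDL-800 library on the same side of every control library, for 3 of the 77 genes, 2 higher and 1 lower, against 6.45% of all tested genes (4.03% higher and 2.42% lower). Mrps23, a protein found in the small subunit of animal mitochondria (chromosome 11, 88204388 to 88211507, GRCm38), had 17.1, 16.7 and 14.97 FPKM in MDL-800 1 to 3, against 14.5, 12.98, 13.99 and 12.9 FPKM in control 1 to 4. Every MDL-800 library stood above every control library, with MDL-800 3 and control 1 closest. The log2 fold change was 0.24 with an SE of 0.10 and a limma adjusted p of 0.950 (unadjusted 0.0451). Mrpl48 of the large subunit had 4.51, 4.67 and 4.37 FPKM in MDL-800 1 to 3, against 4.03, 3.40, 4.02 and 3.89 FPKM in control 1 to 4. All MDL-800 libraries were above all controls, and control 2 was lowest. Its log2 fold change was 0.19 with an SE of 0.09 and a limma adjusted p of 0.950.

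Mrps25 of the small subunit was the gene on the opposite side. It had 2.15, 2.104 and 2.22 FPKM in MDL-800 1 to 3, against 2.45, 2.45, 2.33 and 2.35 FPKM in control 1 to 4. All MDL-800 libraries were below all controls, by a log2 fold change of -0.11 with an SE of 0.08 and a limma adjusted p of 0.950. The library chemistry does not mark strand, and 69.8% of the exon bases of Mrps25 are shared with Nr2c2 on the opposite strand, so reads of these genes cannot be told apart. Of the 78 ribosomal genes, 33 share some exon bases with another gene, and 3 share at least 50%. The number of separated genes varied with the libraries. It was 7 without MDL-800 2, 9 without MDL-800 3, 8 without control 1, 6 without control 2 and 5 without control 3, against 13.1%, 10.3%, 15.6%, 10.6% and 12.5% of all tested genes in the same order.

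Among the other large subunit genes with the smallest p above 0, Mrpl44, whose protein resembles a double-stranded RNA nuclease (chromosome 1, 79776018 to 79781445, GRCm38), had the largest fold change. It had 16.0, 17.2 and 13.8 FPKM in MDL-800 1 to 3, against 13.3, 11.3, 14.7 and 10.7 FPKM in control 1 to 4. MDL-800 3 lay below control 3, so the groups overlapped. The log2 fold change was 0.31 with an SE of 0.14 and a limma adjusted p of 0.950. Mrpl12, a stalk protein that also binds the mitochondrial RNA polymerase, had 58.5, 63.0 and 50.7 FPKM in MDL-800 1 to 3, against 56.97, 37.6, 53.8 and 46.2 FPKM in control 1 to 4. MDL-800 2 was highest and control 2 lowest, with overlap between the groups and a log2 fold change of 0.25 (SE 0.17). Of the exon bases of Mrpl12, 13.1% are shared with Gm16755 on the opposite strand. Mrpl41 averaged 36.1 ± 4.61 FPKM in MDL-800 livers (SD, n = 3) and 31.6 ± 6.00 FPKM in control livers (SD, n = 4). Mrpl46 averaged 15.2 ± 1.11 FPKM in MDL-800 livers (SD, n = 3) and 13.3 ± 1.99 FPKM in control livers (SD, n = 4), and 12.2% of its exon bases are shared with Mrps11 on the opposite strand of chromosome 7.

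Below 0 in the large subunit, Mrpl36 (chromosome 13, 73328513 to 73332178, GRCm38) had the lowest fold change. It had 32.2, 31.9 and 23.9 FPKM in MDL-800 1 to 3, against 41.5, 29.97, 34.4 and 37.0 FPKM in control 1 to 4. Control 2 fell among the MDL-800 libraries, and the log2 fold change was -0.28 with an SE of 0.16 and a limma adjusted p of 0.950. Ndufs6, whose 5′ end overlaps that of Mrpl36, had 109, 121 and 103 FPKM in MDL-800 1 to 3, against 122, 74.5, 103 and 91.9 FPKM in control 1 to 4, a log2 fold change of 0.20. The pair thus had fitted differences of opposite sign, and the difference between them was not tested. Mrpl4 averaged 13.4 ± 1.47 FPKM in MDL-800 livers (SD, n = 3) and 15.95 ± 2.0999 FPKM in control livers (SD, n = 4). Mrpl33 averaged 4.25 ± 0.870 FPKM in MDL-800 livers (SD, n = 3) and 4.80 ± 0.354 FPKM in control livers (SD, n = 4), with its lowest value in MDL-800 1.

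Among the other small subunit genes, Mrps16, the relative of bacterial S16, had 13.1, 12.5 and 10.5 FPKM in MDL-800 1 to 3, against 10.9, 9.42, 10.5 and 8.92 FPKM in control 1 to 4. MDL-800 3 lay within the controls, and the log2 fold change was 0.25 with an SE of 0.12 and a limma adjusted p of 0.950. Mrps33 averaged 18.0 ± 0.664 FPKM in MDL-800 livers (SD, n = 3) and 15.8 ± 3.11 FPKM in control livers (SD, n = 4). Mrps17 averaged 6.40 ± 1.15 FPKM in MDL-800 livers (SD, n = 3) and 7.04 ± 0.560 FPKM in control livers (SD, n = 4). Mrps6, with only 83 to 151 reads per library, averaged 4.397 ± 0.447 FPKM in MDL-800 livers (SD, n = 3) and 4.95 ± 0.923 FPKM in control livers (SD, n = 4). Each of these differences had a 95% interval that included 0.

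The paralogs Mrps18a, Mrps18b and Mrps18c descend from the gene of bacterial S18, and in structures of the mammalian particle the Mrps18a protein sits in the large subunit despite its name. Mrps18a had 8.597, 8.11 and 7.57 FPKM in MDL-800 1 to 3, against 7.44, 5.89, 8.10 and 5.59 FPKM in control 1 to 4. Control 3 fell among the MDL-800 libraries, and the log2 fold change was 0.24 (SE 0.14). Mrps18b had 7.54, 8.81 and 6.57 FPKM in MDL-800 1 to 3, against 8.65, 5.22, 7.17 and 5.81 FPKM in control 1 to 4. Mrps18c had 18.7, 28.0 and 22.3 FPKM in MDL-800 1 to 3, against 23.7, 16.3, 20.5 and 20.7 FPKM in control 1 to 4. Control 2 was the lowest library for Mrps18b and Mrps18c, and control 4 for Mrps18a. The log2 fold changes were 0.18 (SE 0.18) for Mrps18b and 0.16 (SE 0.18) for Mrps18c. Of the exon bases of Mrps18b, 30.5% are shared with Gm16279 on the opposite strand, and of those of Mrps18c, 23.2% with Gm43511.

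The libraries differed from each other more clearly than the groups did. For each gene the deviation of log2(FPKM + 1) from its own mean over the 7 libraries was taken. Over both subunits its median was 0.03, 0.16 and -0.09 in MDL-800 1 to 3, against 0.20, -0.28, 0.03 and -0.02 in control 1 to 4. The large and the small subunit alone followed the same order of libraries, with medians of -0.28 and -0.26 in control 2 and of 0.18 and 0.23 in control 1. Control 2 was the lowest library for 54 of the 77 genes (70.1%), against 27.8% of all tested genes. MDL-800 2 was the highest for 19 of the 77 genes (24.7%), against 23.1% of all, and control 1 was the highest for 40 (51.9%), against 19.0% of all.

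**Figure D3:**
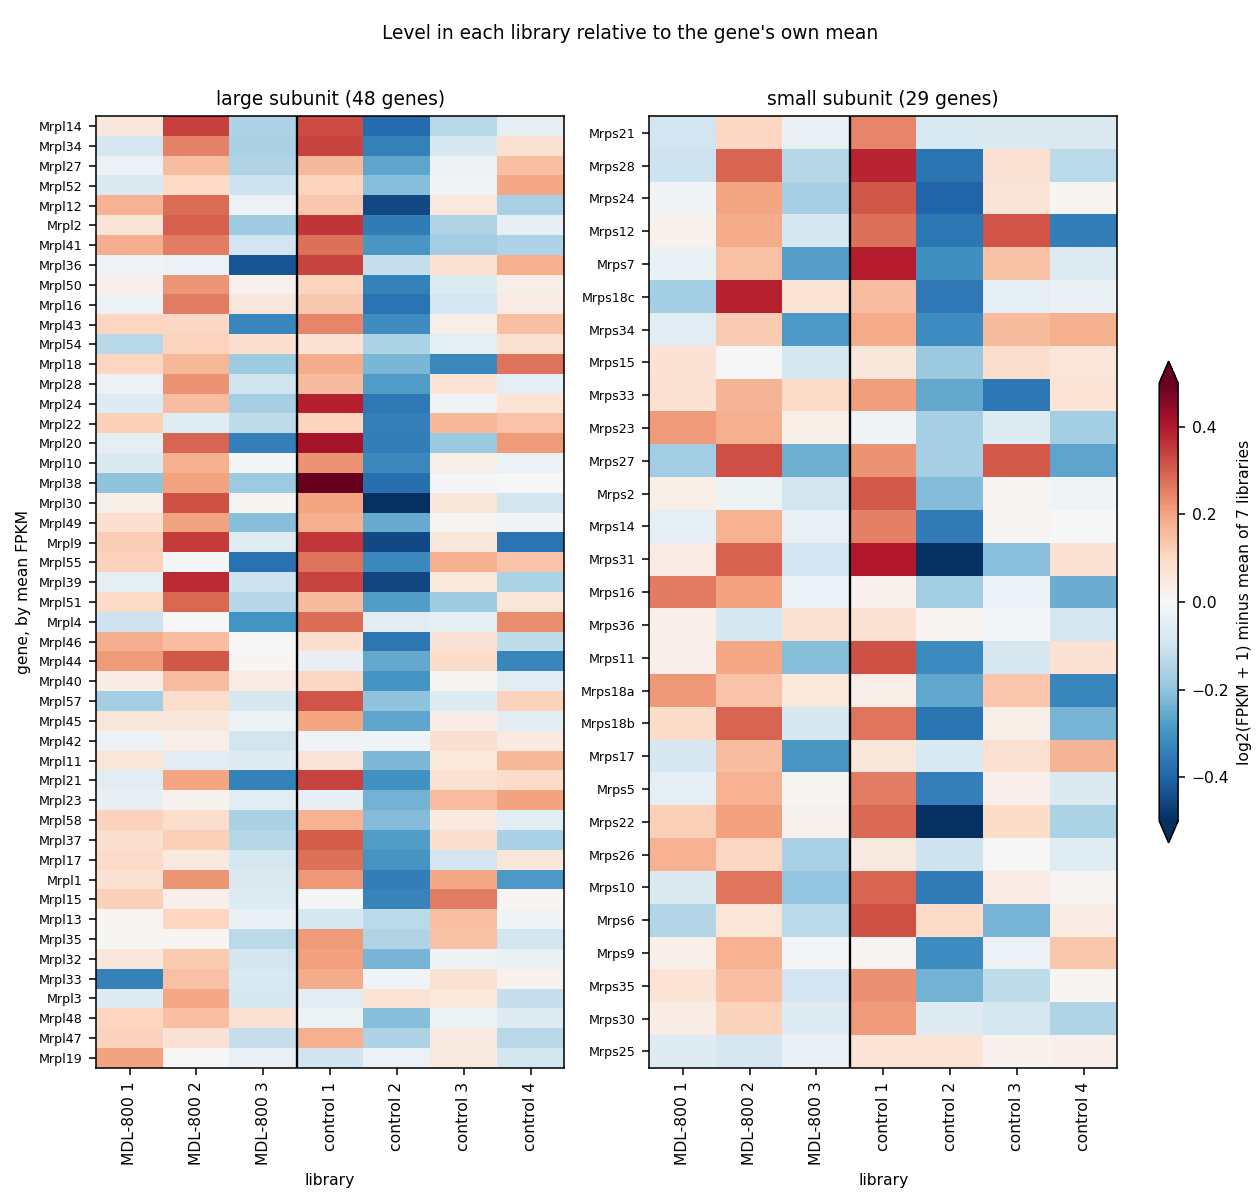
Deviation of log2(FPKM + 1) in each library (columns, MDL-800 left of the line and control right) from the gene's mean of 7 libraries (colour), for each gene (rows by mean FPKM) of the large subunit (left panel, 48 genes) and the small subunit (right panel, 29 genes). MDL-800 2 is above the gene's mean for 69 of 77 genes, control 1 for 68 and control 2 for 4.

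How far a library moved depended on the scaling. The depth by which the deposited FPKM values were scaled was not the sum of the recovered reads: that sum over the depth used was 1.28 in MDL-800 2 and 0.995 in control 2, the highest and lowest of the 7 libraries. With summed reads as the denominator, a scaling chosen after the data were seen, the median deviation over both subunits was 0.14, 0.03 and -0.01 in MDL-800 1 to 3, against 0.10, -0.07, -0.06 and -0.08 in control 1 to 4. MDL-800 1 was then the highest library for 37 genes (48.1%), against 18.2% of all tested genes. Control 4 was the lowest for 22 (28.6%), close to the 28.0% of all. The median deviation of all tested genes was then subtracted in each library. A change of denominator multiplies a whole library by a single factor, which this subtraction largely removes. The scalings therefore had to give nearly the same order, and their likeness is not a separate check. The difference was 0.03, 0.09 and -0.08 in MDL-800 1 to 3, against 0.16, -0.18, 0.01 and 0.02 in control 1 to 4 on the deposited scale. With summed reads it was 0.04, 0.08 and -0.07 in MDL-800 1 to 3, against 0.15, -0.15, 0.00 and 0.01 in control 1 to 4. MDL-800 2 and control 1 thus stood above, and MDL-800 3 and control 2 below, the general level of their library.

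**Figure D4:**
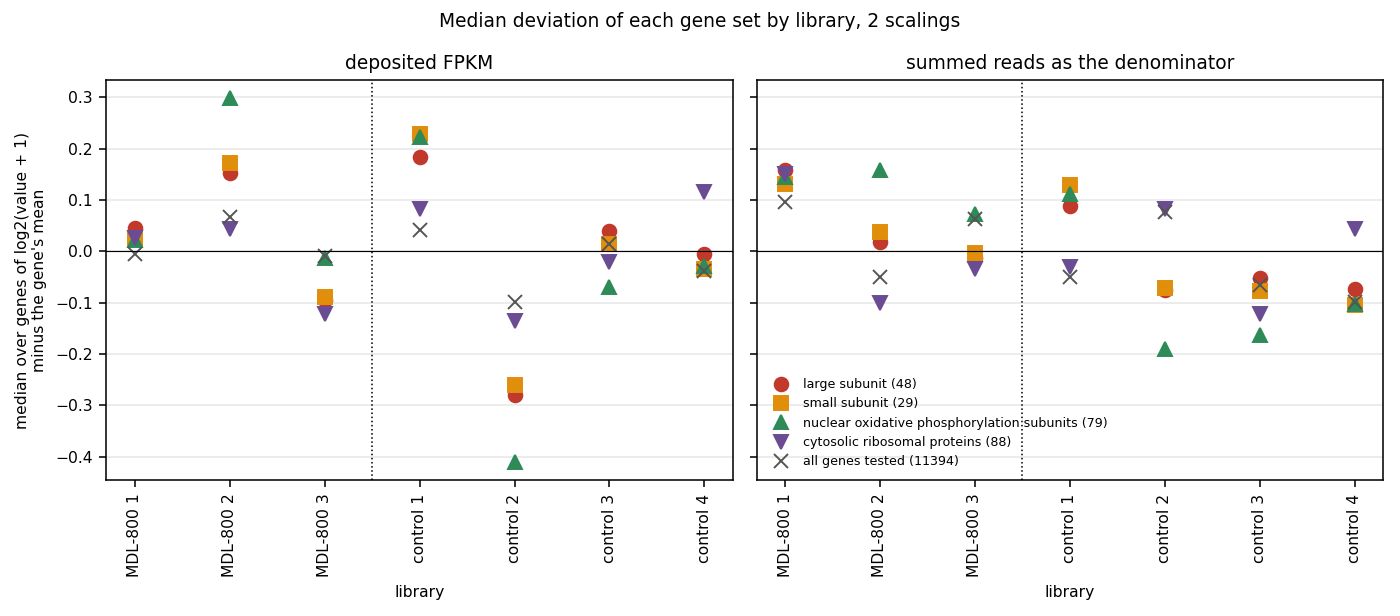
Median deviation of each gene set in each library (y axis, log2(value + 1) minus the gene's mean of 7 libraries), on deposited FPKM (left) and with summed reads as the denominator (right), MDL-800 left of the dotted line and control right of it. On the deposited scale both subunits lie at -0.28 to -0.26 in control 2 and at 0.18 to 0.23 in control 1, farther from 0 than all genes tested, and the nuclear oxidative phosphorylation subunits reach -0.41 and 0.22.

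Short genes moved with the library as well, and the ribosomal genes are short, with a median gene length of 2255 bases, against 3707 bases for all tested genes. Among the 2850 shortest tested genes, the median deviation in control 2 was -0.31 over 34 ribosomal genes, against -0.16 over all 2850. Among the 2849 longest it was -0.17 over 12 ribosomal genes, against -0.08 over all 2849. The part of gene length in the pattern was not tested beyond these values.

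The order of libraries also ran in part with markers of other cell types and with Y-linked reads. Control 2, where the ribosomal genes were low, was the library with the highest macrophage, neutrophil and erythroid sums given above. MDL-800 2 and control 1, where they were high, had the lowest macrophage sums (131 and 127 FPKM). Neutrophil markers were lowest in MDL-800 2 (11.6 FPKM), but control 1 (37.2 FPKM) stood above control 4 (22.3 FPKM). The erythroid sum of control 1 (151 FPKM) was the highest after control 2. Among macrophage markers, Marco was highest in MDL-800 2 (31.5 FPKM) and Timd4 in control 4 (9.18 FPKM), and the others were highest in control 2. The part of these cell types in the result was not tested, and in bulk liver fewer cells of a type and less RNA per cell cannot be told apart. The 5 libraries without Y-linked reads were not alike, since control 3 had no Xist reads either. With a limma term for the 2 libraries that hold Y-linked reads, 74 of 77 ribosomal genes were above 0 (96.1%), against 61.1% of all tested genes, with a median log2 difference of 0.25, against 0.08. None of the 77 passed that term at an adjusted p under 0.05, against 276 of all tested genes (2.42%), and 18 had an unadjusted p under 0.05, against 22.7% of all. The voom fit also called none of the 77 for that term, against 189 of 11394 tested genes. In that fit 2 of the 77 had an unadjusted p under 0.05, and the share over all genes is not given here. The 276 genes became 82, 84 and 93 without MDL-800 1, 2 or 3, and 38 without control 1. With summed reads as the denominator, 53 of 77 were above 0, against 38.8% of all. The largest differences on the deposited scale were 0.55 for Mrpl38 (limma adjusted p of 0.114) and 0.50 for Mrpl20 (limma adjusted p of 0.180).

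Genes also differed in how much they varied. The highest library exceeded the lowest by 1.14-fold to 1.996-fold, with a median of 1.52-fold. The genes named next were chosen after their values were seen. Mrps22 had 6.61, 7.08 and 6.10 FPKM in MDL-800 1 to 3, against 7.53, 3.77, 6.48 and 5.29 FPKM in control 1 to 4, and Mrps31 and Mrpl38 varied by 1.99-fold and 1.96-fold. At the narrow end Mrps36, whose protein is now placed in the oxoglutarate dehydrogenase complex, had 9.59, 8.79 and 9.97 FPKM in MDL-800 1 to 3, against 9.96, 9.48, 9.37 and 8.78 FPKM in control 1 to 4. Control 2 was neither high nor low for Mrps36. Mrpl42 also varied by 1.14-fold.

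Reads of the genes for the RNA core of the particle shared their 2 highest libraries with the protein genes but not the whole order. How far the cDNA kit captures ribosomal RNA was not examined, so these values are not read as amounts of rRNA. The 12S rRNA gene mt-Rnr1 had 293, 803 and 364 FPKM in MDL-800 1 to 3, against 975, 294, 363 and 610 FPKM in control 1 to 4. The 16S rRNA gene mt-Rnr2 had 256, 719 and 319 FPKM in MDL-800 1 to 3, against 991, 217, 258 and 411 FPKM in control 1 to 4. Control 1 was highest and MDL-800 2 next for each, as for the protein genes, and the groups overlapped. Control 4 followed for each, whereas the protein genes had a median deviation of -0.02 there. The lowest library was MDL-800 1 for mt-Rnr1, where the protein genes stood at 0.03, and control 2 for mt-Rnr2. The 13 mitochondrial messages that the particle translates summed to 41203, 58848 and 41110 FPKM in MDL-800 1 to 3, against 56505, 36309, 49590 and 51760 FPKM in control 1 to 4, with the highest sum in MDL-800 2 and the lowest in control 2.

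Lists of genes that work with the ribosome gave no adjusted call. Of 5 ribosomal proteins with other names, such as Dap3 and Chchd1, 2 had a log2 fold change above 0 and the median was -0.02. Of 16 translation factors, 12 had a log2 fold change above 0 with a median of 0.09. Those with the smallest p were Gatb, with a log2 fold change of 0.31, and Mtfmt, with -0.14, each with a limma adjusted p of 0.950. Of 24 assembly and rRNA modification genes 12 lay above 0 with a median near 0. Of 17 mitochondrial aminoacyl-tRNA synthetases, 12 lay above 0 with a median of 0.06. In this list Iars2, the isoleucyl-tRNA synthetase, averaged 9.37 ± 1.32 FPKM in MDL-800 livers (SD, n = 3) and 6.95 ± 0.915 FPKM in control livers (SD, n = 4), with a log2 fold change of 0.38 and a limma adjusted p of 0.950. Gtpbp10, a GTPase of large subunit assembly, averaged 3.65 ± 0.333 FPKM in MDL-800 livers (SD, n = 3) and 2.96 ± 0.246 FPKM in control livers (SD, n = 4). Of 9 genes of mitochondrial transcription and RNA stability, 6 lay above 0 with a median of 0.16. Tfam, the packaging and transcription factor of mitochondrial DNA, averaged 13.8 ± 0.814 FPKM in MDL-800 livers (SD, n = 3) and 11.8 ± 1.21 FPKM in control livers (SD, n = 4).

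Regulators of nuclear mitochondrial genes were divided, with 5 of 9 above 0. Gabpa, the DNA-binding subunit of the ETS factor whose letters were searched in the promoters, had 10.2, 13.7 and 11.4 FPKM in MDL-800 1 to 3, against 10.01, 8.69, 9.75 and 8.65 FPKM in control 1 to 4. Every MDL-800 library stood above every control, with a log2 fold change of 0.31 (SE 0.12) and a limma adjusted p of 0.950. Pprc1, a coactivator of the PGC-1 family, averaged 1.197 ± 0.410 FPKM in MDL-800 livers (SD, n = 3) and 1.73 ± 0.229 FPKM in control livers (SD, n = 4). The nuclear oxidative phosphorylation subunits had 69 of 79 genes above 0 and a median of 0.17, with 3 at an unadjusted p under 0.05. The cytosolic ribosomal proteins had 32 of 88 above 0 and a median of -0.04, with 5 at an unadjusted p under 0.05. The median of the mitochondrial ribosomal genes, 0.04, lay between these lists, and no difference between lists was tested.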

How the data were processed

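RNA of 7 mouse liver libraries was measured, 3 MDL-800 and 4 control, grouped by the diet given in the labels. Per the labels' protocols, lysed liver was turned into cDNA with a low-input SMARTer kit, amplified and sheared, and an NEBNext kit that does not mark strand made the libraries. The authors deposited FPKM per gene. The submitters' processing notes name Cufflinks 2.2.1, Bowtie2 2.1.0, TopHat2 2.0.14 and build mm9. For the read counter, no name was found in the labels (not given in the sources used here). Coordinates in the table are GRCm38: of 54409 identifiers also in GENCODE M21, 53756 match it in chromosome and start.

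Deposited FPKM times gene length gave whole reads (100% of values above 0 within 0.01 of a whole number). Genes averaging 1 FPKM or more were tested as log2(FPKM + 1) with limma 3.58.1 in R 4.3.3 (lmFit, eBayes with a trend, two-sided) and Benjamini-Hochberg adjustment at 0.05. This scale understates changes of low genes. The procedure was tested on simulated data.

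Named genes were, per subunit, the 5 with the smallest p above 0, the 3 below 0 and the 3 with the highest mean, with Mrpl12 and the Mrps18 paralogs. Pathway lists gave values for genes with the smallest p, though not for all such genes in every list. The members and lists were chosen with earlier results of these data known. Alternatives were a pseudocount of 0.1, no filter, a mean of at least 5 FPKM, median scaling, quantile normalization, a replicate block, array weights, a Y-linked term, only libraries without Y-linked reads, voom on recovered reads, leaving out each library and, chosen after seeing the data, summed reads as the denominator. Python 3.11.15 with matplotlib 3.10.9 drew the plots.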

Additional observations from a re-analysis of the deposited data

Results flagged for a closer look

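Of 27 named genes and library sums examined for a library far from the others of its group, 2 stood out. Both concern control 1. The items share the same libraries and are not separate looks, so no number expected by chance is given. In the control group, Mrps21 had a library, control 1, whose gap to its nearest neighbour was 0.988 of the group's whole range on log2(FPKM + 1). The share of reads taken by the 77 genes had control 1 at 0.269%, and its gap to the next control was 0.963 of the range. Control 1 is a library with Y-linked reads, and the part of that difference in either value was not tested.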

How the results depend on the processing

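No named gene passed the adjusted threshold under any of the 18 alternatives that included it, and 18 of 23 kept their sign under those. Mrpl33, Mrpl48, Mrps6 and Mrps25 average under 5 FPKM and were not part of that alternative. Genes called numbered 0, and 0 to 1 when a library was left out, with 1 without MDL-800 1 and 1 without control 1. Genes at an unadjusted p under 0.05 (553) numbered 1083 with no filter, 305 at a mean of at least 5 FPKM, 946 with array weights and 274 to 948 when a library was left out. The same count among the ribosomal genes (1) was 2 with quantile normalization (5.90% of all genes), 4 with summed reads (6.82%), 0 in libraries without Y-linked reads (5.40%), 3 with voom (6.63%) and 0 to 2 when a library was left out. Separated ribosomal genes (3) numbered 1 of 67 at 5 FPKM (6.64% of all genes), 6 of 77 with quantile normalization (7.42%), 9 with summed reads (8.65%), 13 in libraries without Y-linked reads (22.7%), 9 with voom (8.69%) and 3 to 9 when a library was left out. Genes called for the Y-linked term (276) numbered 159 with no filter and 38 to 409 when a library was left out. In each case the cause was not tested.

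The replicate numbers did not pair the libraries, since deviations of same-numbered libraries correlated at -0.587, -0.553 and 0.0565. With the replicate number as a block the counts were 192 genes and 0 ribosomal genes at an unadjusted p under 0.05 and 24 genes for the Y-linked term, and the log2 fold changes that changed sign were Mrpl27 (0.0339), Mrpl34 (0.0252) and Mrps28 (-0.0147). Signs changed in 5 genes, all with fitted values near 0. Mrpl27 was 0.0252 with summed reads and 0.0255 with voom, Mrpl34 0.0391 and 0.0399, and Mrps21 0.0250 and 0.0247, and 0.0077 in libraries without Y-linked reads. Mrps24 was -0.0055 with median scaling, -0.0082 with quantile normalization, -0.0629 with array weights and -0.0183 with the Y-linked term, and Mrps28 -0.0544 with array weights and -0.0127 with the Y-linked term. When a library was left out, the ranges were -0.10 to 0.06 for Mrpl27, -0.13 to 0.11 for Mrpl34, -0.0711 to 0.0644 for Mrps21, -0.12 to 0.12 for Mrps24 and -0.11 to 0.16 for Mrps28. Reads per library (83 to 1577 per gene) and 3 against 4 libraries limit the precision, with a median SE of 0.15 on the log2 scale.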

Other observations

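Mrpl44, which had the highest fitted difference of the ribosomal genes, overlaps by 125 bases at its 5′ end with Wdfy1 on the opposite strand, a gene outside the lists. Wdfy1 encodes an endosomal adaptor protein. It had 3.86, 4.60 and 3.92 FPKM in MDL-800 1 to 3, against 1.99, 1.56, 3.34 and 3.63 FPKM in control 1 to 4. Every MDL-800 library stood above every control library, with a log2 fold change of 0.54 (SE 0.22) and a limma adjusted p of 0.950. Gga3, whose 5′ end overlaps that of Mrps7 on the opposite strand, had 1.26, 1.17 and 1.33 FPKM in MDL-800 1 to 3, against 1.84, 1.94, 1.37 and 2.16 FPKM in control 1 to 4, with every MDL-800 library below every control library, a log2 fold change of -0.32 (SE 0.13) and a limma adjusted p of 0.950. These were the 2 of 18 tested partners whose groups were separate, against 6.45% of all tested genes, and both were chosen after their values were seen. So small a count says nothing about partners as a set. Because strand was not marked, reads in the shared bases cannot be given to either gene, and 7.66% of the exon bases of Mrpl44 are shared.

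The table also lists 5 processed pseudogenes of these genes, which were not counted as members. Among them Mrpl23-ps1 had 1.70, 1.22 and 2.65 FPKM in MDL-800 1 to 3, against 1.31, 0.532, 1.22 and 2.34 FPKM in control 1 to 4. The groups overlapped. Reads of a pseudogene and of its parent gene can be exchanged in counting, so the low values of the pseudogenes are uncertain.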
